A study of Rattus norvegicus with 3 samples.

Results

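Tetrahydrobiopterin is the cofactor without which tyrosine hydroxylase, the enzyme that starts catecholamine synthesis, cannot work. Its genes were followed here in rat adrenal medulla after 1 or 7 days of cold. The members were all probe sets annotated to Gch1, Gchfr, Pts, Spr, Qdpr or Pcbd1 alone, and 5 of the 31042 gene probe sets met that rule. They cover 4 of the 6 genes, out of 14217 named on the array, with 2 probe sets for Gch1 and 1 each for Pts, Qdpr and Gchfr. Another 2 probe sets are annotated to Spr together with its pseudogene Spr-ps1 and were not used, and Pcbd1 is not analysed here. All 5 members passed the filter on low values, which kept the brighter 50% of gene probe sets by mean log2 value over the arrays.

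Each sample was total RNA hybridised to 1 oligonucleotide array of 31099 probe sets, on which a probe set is a group of short probes for 1 transcript. The labels put 2 arrays, called a and b here, at 1 day of cold exposure and 1 array at 7 days. All rats were thus in the cold, and no array of rats kept out of it was analysed here. The strain, sex and age of the rats and the temperature are not given in the labels, nor whether the 1-day arrays hold RNA of different animals, and p-values then measure a spread that may be technical. With 3 arrays in all, the precision of each value is limited by their number.

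The cofactor is made from GTP in a short pathway. GTP cyclohydrolase, encoded by Gch1, opens it and is its rate-limiting step. Pyruvoyltetrahydropterin synthase (Pts) and sepiapterin reductase (Spr) complete it. Each round of hydroxylation oxidises the cofactor, and carbinolamine dehydratase (Pcbd1) and dihydropteridine reductase (Qdpr) return it to its active form. Gchfr encodes a regulatory protein that binds GTP cyclohydrolase and lets the end product inhibit it. In chromaffin cells, the catecholamine cells of the adrenal medulla, Gch1 and the tyrosine hydroxylase gene Th are known to respond to nerve input and cyclic AMP.

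Of the measured genes, Gch1, Gchfr and Qdpr held matches to the motifs named below, and Pts held none. The upstream sequences of the genes with matches are shown. They are the 150 bases before the annotated start, from RefSeq on assembly GRCr8, at chr15:22917413-22917562 on the minus strand, chr3:126611742-126611891 on the plus strand and chr14:69882626-69882775 on the plus strand. Capitals mark matches on either strand to TGACG, the core of the cAMP response element, to CCAAT, to GGGCGG or to TATAAA.
Gch1: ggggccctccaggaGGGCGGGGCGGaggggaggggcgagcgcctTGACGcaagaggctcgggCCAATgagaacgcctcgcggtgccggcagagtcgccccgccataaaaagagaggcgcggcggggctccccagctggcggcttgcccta
Gchfr: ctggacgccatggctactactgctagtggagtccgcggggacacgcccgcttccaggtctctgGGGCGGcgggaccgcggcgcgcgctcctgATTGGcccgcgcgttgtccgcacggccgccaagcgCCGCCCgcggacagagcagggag
Qdpr: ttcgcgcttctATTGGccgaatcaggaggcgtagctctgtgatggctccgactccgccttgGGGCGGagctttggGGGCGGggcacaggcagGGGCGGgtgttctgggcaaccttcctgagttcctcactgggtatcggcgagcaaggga

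In the 250 bases before its start, Gch1 held 1 TGACG at position -106, counted back from the start, and 1 CCAAT at position -88. It also held 2 GGGCGG matches that share 1 base. Gchfr held 1 CCAAT and 2 GGGCGG, and Qdpr 1 CCAAT and 4 GGGCGG. Gch1 was the only one of the 4 measured genes with TGACG, and Pts held none of the 4 motifs. Of 33469 promoter windows of that length, 18.2% held TGACG, 34.0% CCAAT, 30.5% GGGCGG and 12.9% TATAAA. A match is a description of the letters, not of a bound site.

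The 3 arrays differed in their overall profile. Across all gene probe sets, the Spearman correlation of the 7-day array with 1-day array b was 0.939, and that of the 1-day pair 0.664. For beta-actin, the 3′ control probe set over the 5′ one, a ratio that climbs with degraded or poorly copied RNA, gave 231 and 6.11 at 1 day (a and b) and 8.87 at 7 days. Results are therefore given against each 1-day array. Chromaffin cell markers had a probe set for 11 of 12 genes, all above the filter, and their summed intensity was 2417706 and 1039022 on 1-day arrays a and b and 1199154 at 7 days. The granin genes Chga and Chgb and Dbh carry most of that sum, and 6 of the 11 genes read lower on 1-day array a than on array b (median -0.49, log2). Against 1-day array b, 5 of the 11 read lower at 7 days as deposited and 6 higher. Their median log2 difference was 0.20 (0.02 with median centring). On the brightest probe sets the deposited differences ran from -0.88 for Gata3 to 0.35 for Chga. Adrenal cortex markers, measured for 6 of 8 genes, were also high, with sums of 1432421, 717602 and 941988. All 6 read higher at 7 days than on 1-day array b (median 0.38, log2, or 0.20 with median centring). Of 6 measured hepatocyte markers 2 passed the filter, and albumin and fibrinogen beta were among the 4 that did not. Fewer cells of a type and less RNA per cell cannot be told apart in such bulk RNA, and the part of cell makeup or RNA quality in the results below was not tested.

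Gch1, the rate-limiting enzyme, read lower at 7 days than on 1-day array b with both of its probe sets, and higher than on 1-day array a. The brighter probe set, 1387221_at, had intensities of 16368 and 61950 on 1-day arrays a and b and of 43515 at 7 days. The dimmer, 1368503_at, had 2421, 6366 and 4369. Both thus placed the arrays in the same order, with the 7-day array between the 1-day arrays. The 7-day array was 1.42-fold below 1-day array b on the brighter probe set and 1.46-fold on the dimmer, log2 differences of -0.51 and -0.54 on the log2(intensity + 16) scale. Their agreement comes from the same RNA and does not stand for replicate samples. Of the 15521 probe sets kept, 5.97% were as low or lower than the brighter Gch1 probe set in that difference, and 5.12% as low or lower than the dimmer.

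Against 1-day array a the same probe sets were 2.66-fold and 1.80-fold higher at 7 days. The mean log2 value of the 1-day arrays was 14.96 ± 1.36 (SD, n = 2) on the brighter Gch1 probe set and 11.95 ± 0.98 (SD, n = 2) on the dimmer. At 7 days the values of 15.41 and 12.10 lay 0.45 and 0.15 above those means, well within the 1-day spread.

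Pts, the second enzyme of synthesis, had intensities of 1367 and 4523 on 1-day arrays a and b and of 4150 at 7 days. The 7-day array stood close to 1-day array b, 1.09-fold below it (-0.12, log2), and 3.01-fold above 1-day array a. Its 1-day mean was 11.29 ± 1.21 (SD, n = 2) and its 7-day log2 value was 12.02.

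Qdpr, which recycles the oxidised cofactor, had the widest gap between the 1-day arrays among the members as deposited (with quantile normalisation that of Pts was wider), at 8745 and 46352 on arrays a and b. At 7 days it read 41567, close to array b. The 7-day value was 1.12-fold below 1-day array b (-0.16, log2) and 4.75-fold above 1-day array a. In log2 units the 1-day mean was 14.30 ± 1.70 (SD, n = 2) against 15.34 at 7 days.

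Gchfr, the regulatory subunit, ran the other way between the 1-day arrays. It read 3231 and 1555 on arrays a and b and 1291 at 7 days, so that array a was highest and the 7-day array lowest. The 7-day array lay 1.20-fold below 1-day array b (-0.27, log2) and 2.48-fold below 1-day array a. The 1-day mean was 11.14 ± 0.74 (SD, n = 2) and the 7-day log2 value 10.35, a difference of -0.79. When arrays were centred on their medians, the order of the 1-day arrays turned, with a log2 difference of array a minus array b of -0.35 in place of 1.05. The 7-day array was still lowest, but by -0.10 from 1-day array a in place of -1.31, and by -0.27 from the 1-day mean.

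**Figure D1:**
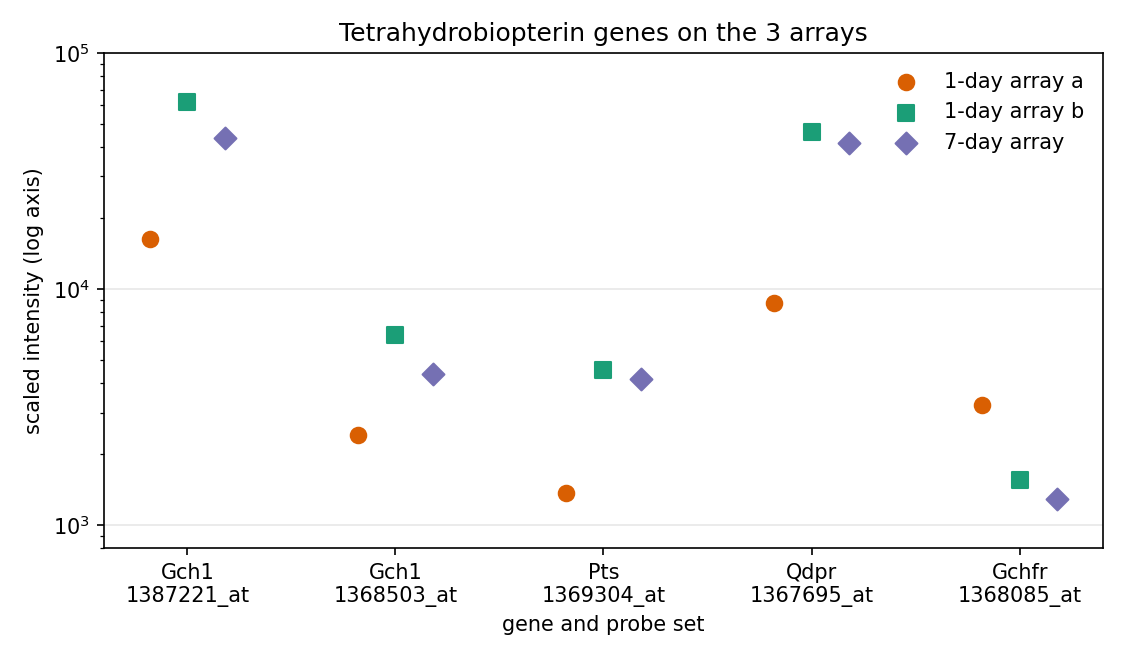
Scaled intensity (vertical log axis) of the 5 probe sets for Gch1, Pts, Qdpr and Gchfr on 1-day array a (circles), 1-day array b (squares) and the 7-day array (diamonds), 1 point per array. For Gch1, Pts and Qdpr 1-day array a is lowest and 1-day array b highest, while for Gchfr 1-day array a is highest (3231) and the 7-day array lowest (1291).

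Between the 1-day arrays, the enzyme genes stood 2.62-fold to 5.29-fold lower on array a and Gchfr 2.07-fold higher. These sizes depend on the scaling: with median centring the log2 differences were -3.31 and -2.78 for Gch1, -3.11 for Pts and -3.80 for Qdpr, in place of -1.92, -1.39, -1.71 and -2.40. Such gaps were common: 20.7% of kept probe sets were at least 2-fold lower on 1-day array a than on 1-day array b, and 24% at least 2-fold higher. Of all kept probe sets, 4.45% lay as far down on array a as Qdpr (-2.40, log2), 7.33% as far as the brighter Gch1 probe set, 9.32% as far as Pts and 13.4% as far as the dimmer Gch1 probe set. The 4 enzyme probe sets read low on 1-day array a, which is also the array with the high actin ratio given above. A link between those readings and that ratio was not tested.

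The difference of 1 gene's change from another's, taken on the same arrays, does not move with the scaling factor of an array. From 1-day array b to array a, the change of the brighter Gch1 probe set minus that of Gchfr was -2.97 in log2 units, or -2.27 with the intensity trend removed. From 1-day array b to the 7-day array that difference was -0.24, ranging to -0.39 with quantile normalisation. Gch1 also stood lower at 7 days relative to Qdpr (-0.35) and to Pts (-0.39), again against 1-day array b, and these were -0.38 and -0.55 with quantile normalisation. Pts stood 0.03 above Qdpr in the same comparison, and 0.17 with quantile normalisation. Against 1-day array a, the difference of Gch1 from Gchfr had the other sign, at 2.72 (1.89 with quantile normalisation). That of Gch1 from Qdpr was -0.84 there (-0.91 with quantile normalisation) and from Pts -0.18 (-1.69). That of Pts from Qdpr was -0.66, or 0.78 with quantile normalisation. Each of these values compares 2 arrays and carries no test.

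In the comparison of 7 days with 1 day over all 3 arrays, 0 of the 5 members were called. The fit was limma on 15521 probe sets, two-sided with Benjamini-Hochberg adjustment at 0.05, and called 0% of all probe sets, while 70 had an unadjusted p under 0.05. The adjusted p was 1.00 for each member in limma. The lowest unadjusted p among the members in limma was 0.302, for Qdpr, with a log2 difference of 1.04 ± 1.01 (SE). That SE is the spread limma fitted at this intensity from the 1-day pair, and the lone 7-day array was assumed to vary likewise. Of the members, 4 lay between the 1-day arrays, as did 52.3% of all kept probe sets. The other, Gchfr, lay below both, as did 25.3%, and 0 lay above both, against 22.4%.

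Set against 1-day array b alone, all 5 members read lower at 7 days, where 50% of kept probe sets did. Their median difference was -0.27, against 0.00 for all kept probe sets, with a range from -0.54 to -0.12. None was 2-fold lower, a size that 0.561% of kept probe sets reached. The sign held for all 5 under quantile normalisation and removal of a trend on intensity, the settings that could turn it. It also held under pseudocounts of 1 and 64 and centring of each array on its median, but there it could not turn. A pseudocount keeps the order of 2 arrays, and centring lowered all these differences alike. The brighter Gch1 probe set ranged from -0.69 to -0.51 over these settings and the dimmer from -0.72 to -0.44. Pts came nearest to 0, at -0.06 with quantile normalisation. The 5 probe sets stand for 4 genes read on the same 2 arrays, so their shared sign is not 5 separate observations.

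**Figure D2:**
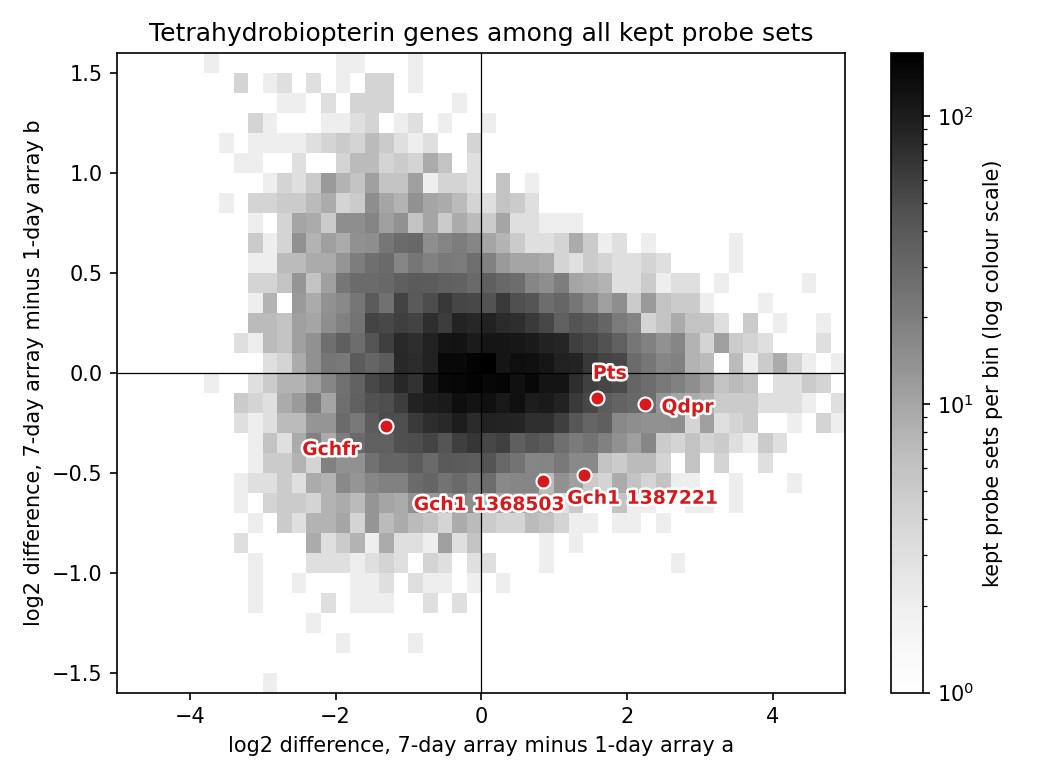
Log2 difference of the 7-day array from 1-day array a (horizontal) and from 1-day array b (vertical) for all kept probe sets, as counts per bin in grey on a log colour scale, with the 5 tetrahydrobiopterin probe sets in red. Bins beyond the axes are not drawn. All 5 lie below 0 on the vertical axis, the Gch1 probe sets lowest at -0.51 and -0.54, and Gchfr alone lies left of 0 on the horizontal axis.

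**Figure D3:**
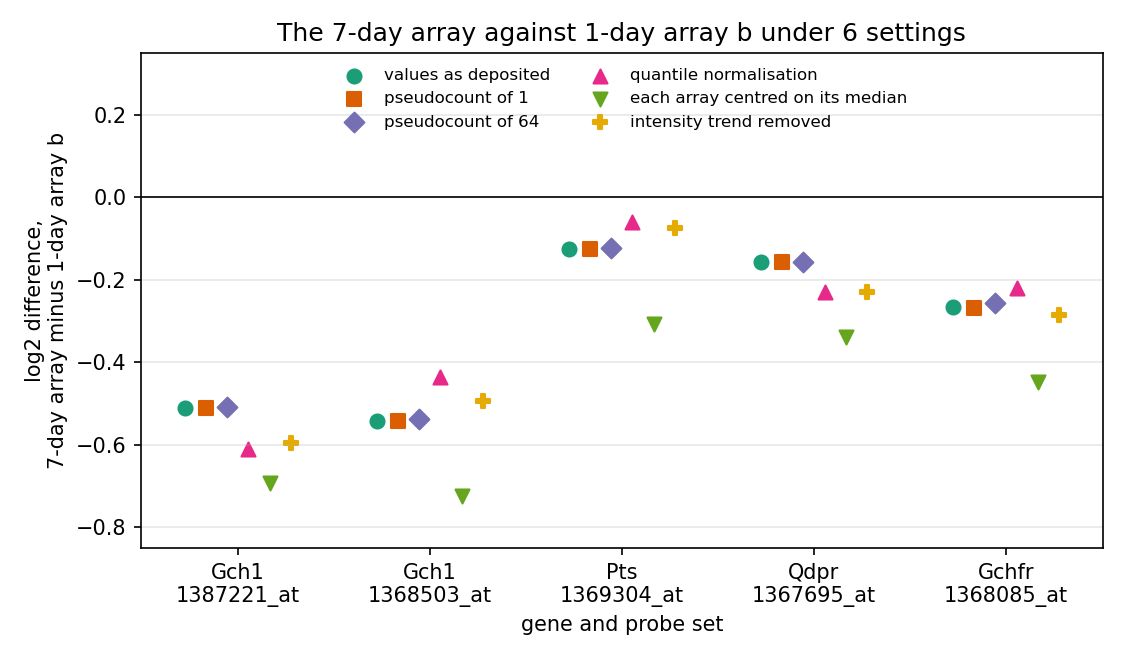
Log2 difference of the 7-day array from 1-day array b (vertical) for each of the 5 probe sets, with the values as deposited and under 5 other settings, 1 symbol per setting. All points lie below 0, with Gch1 between -0.72 and -0.44 and Pts nearest to 0. The pseudocounts and median centring could not have lifted a point above 0.

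The enzymes that consume the cofactor were next described, from a list of 8 genes. Of these, 5 had a probe set and 3 passed the filter, and 0 were called by limma, where the adjusted p was 1.00 for all 3. Th, whose product is the main user of the cofactor in chromaffin cells, read 79575 and 193597 on 1-day arrays a and b and 224786 at 7 days, above both. Its difference from 1-day array b was 0.22, which became 0.01 with the intensity trend removed and -0.14 with quantile normalisation. Gch1 and Th thus stood on opposite sides of 1-day array b as deposited, -0.51 and 0.22, though that of Th depends on the scaling. Of the 11 measured chromaffin cell markers, 5 read lower than 1-day array b as deposited, Ddc (-0.23) among them, and 6 higher, Th included. Of the other higher ones, Dbh turned to -0.12 with quantile normalisation, and Pnmt and Chgb to 0.00. Chga (0.06) and Hand2 (0.29) stayed higher. The endothelial nitric oxide synthase gene Nos3 was nearly level, at 1335, 1473 and 1526, the last 0.05 (log2) above 1-day array b, or -0.13 with median centring. Nos1, the neuronal form, read 2489, 305 and 800, with 1-day array a far above the rest. The 3 genes had a median of 0.22 against 1-day array b (0.03 with median centring) and 0.19 against 1-day array a.

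Of 6 further enzymes and partners, 5 had a probe set and all 5 passed the filter, with 0 called by limma. Against 1-day array b 4 read higher at 7 days and 1 lower (median 0.14, or -0.04 with median centring), and against 1-day array a the median was 1.31. Dnajc12, a cochaperone of the hydroxylases that use the cofactor, was the lower, at 2551, 8196 and 6638 on 1-day arrays a and b and the 7-day array. It had the order of arrays seen for Gch1, Pts and Qdpr, and stood -0.30 (log2) from 1-day array b. That order was not particular to the pathway. Among chromaffin markers Ddc, Slc18a1 and Phox2a had it too, while Dbh, Chga, Chgb and Hand2 lay between in the reverse order. Of 5 macrophage and lymphocyte markers above the filter, 4 had it as well. In either order, 52.3% of kept probe sets lay between the 1-day arrays. The carbonyl reductase gene Cbr1 and the aldose reductase gene Akr1b1, whose products can stand in for sepiapterin reductase, were 0.31 and 0.15 above 1-day array b, and the latter was -0.03 with median centring. A second Akr1b1 probe set read 2845, 422 and 718 and did not follow the first between the 1-day arrays. Pcbd2, a relative of the recycling dehydratase Pcbd1, stood at 0.14 (-0.04 with median centring), and at 0.36 on a second probe set. Ahsa1, which encodes an activator of the chaperone Hsp90, stood at 0.08 (-0.10 with median centring).

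Guanine nucleotide genes, which feed the pathway with GTP, were measured for 5 of 7 genes, all above the filter and 0 called by limma. At 7 days 2 lay above both 1-day arrays, 2 below both and 1 between. The median was 0.16 against 1-day array b and -0.31 against 1-day array a, and with median centring -0.02 and 0.90, with 2 above both, 0 below both and 3 between. Hprt1, of purine salvage, read 4472, 25398 and 28439, a wide gap between the 1-day arrays, with 0.16 (-0.02 with median centring) above 1-day array b. Gmps, which makes GMP, stood 0.27 above 1-day array b on its brightest probe set and -0.57 on another. Guk1 and Nme1, kinases that carry GMP and GDP on toward GTP, stood at -0.12 and -0.10, and Nme2 at 0.26.

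**Figure D4:**
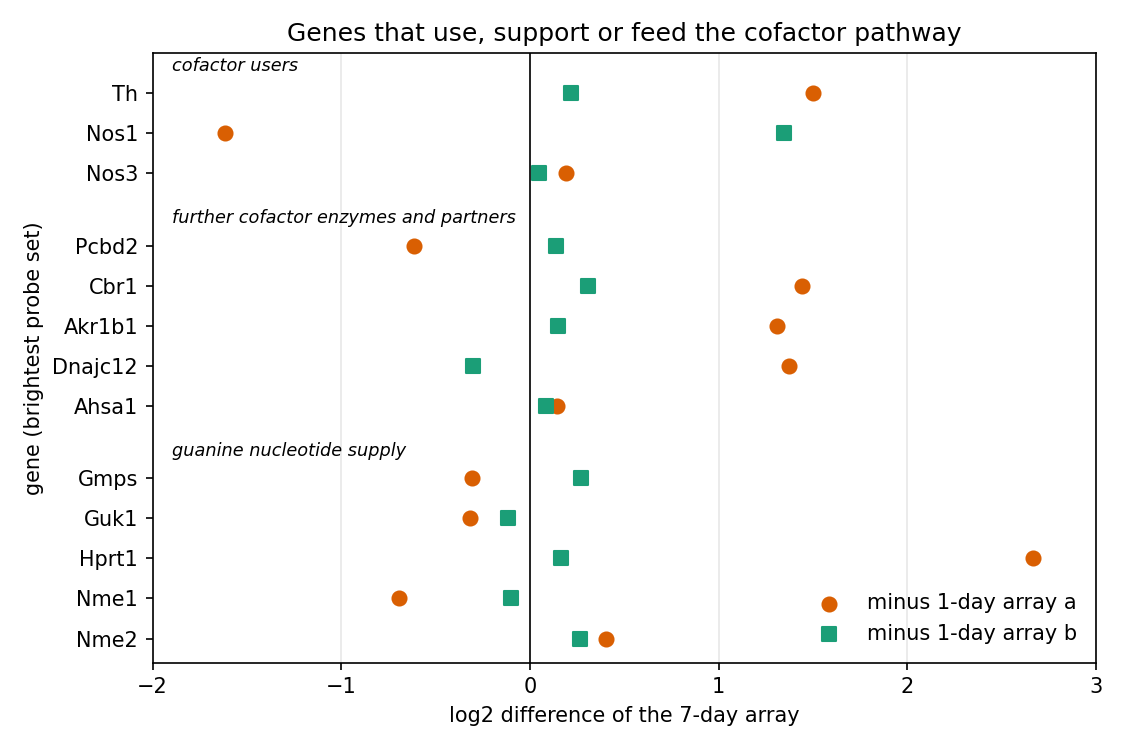
Log2 difference of the 7-day array (horizontal) from 1-day array a (circles) and from 1-day array b (squares) for the brightest probe set of each gene above the filter, on the lists of cofactor users, further enzymes and partners, and guanine nucleotide supply. Against 1-day array b, Dnajc12 (-0.30) is the lowest and Nos1 (1.35) the highest.

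The genes whose pattern was most like that of the brighter Gch1 probe set were sought among 12052 kept probe sets with 1 gene symbol. Likeness was the distance between pairs of log2 differences, 7 days minus each 1-day array, which rests on 3 arrays. The 5 nearest were Agtr1a (distance 0.03), Zcchc12 (0.04), Igtp (0.06), Cd14 (0.06) and Col4a1 (0.08). Agtr1a, which encodes an angiotensin receptor, read 1645 and 6162 on 1-day arrays a and b and 4403 at 7 days. Igtp encodes an interferon-induced GTPase, Cd14 a receptor for bacterial lipopolysaccharide and Col4a1 a collagen of basement membranes. In all, 59 probe sets lay within a distance of 0.2, and the dimmer Gch1 probe set lay at 0.56, farther away than these.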

How the data were processed

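Per array, the authors deposited 1 linear intensity for each probe set, already summarised and scaled, with software not given in the sources used here. Their 2% trimmed means were 2500.66, 2500.99 and 2501.03, so the arrays appear scaled to a common level, which hides differences in total RNA. Members and gene lists were chosen with earlier results of these data known. Values were turned into log2(intensity + 16), which understates differences of dim genes. After removal of 57 control probe sets, the 15521 probe sets with a mean log2 value of at least 9.60 were kept. Names came from the platform annotation (20826 probe sets with 1 symbol, 436 with several, 9780 with none), updated through Entrez identifiers in RefSeq (GRCr8). All member probe sets are named, and listed genes where a probe set passed the filter, by the brightest. Outside this rule, Nos2, Agmo, albumin and fibrinogen beta are named as genes below the filter. Limma 3.58.1 in R 4.3.3 was fitted to all 3 arrays with an intensity trend and 1 residual degree of freedom, and tested on simulated data. The simulated spread came from the log2 difference of 1-day array b and the 7-day array (SD 0.387). That of the 1-day pair was wider (SD 1.43), so the fit was not tested at the spread of these data. In the main setting the variance of each probe set came wholly from the intensity trend (infinite prior degrees of freedom). Python 3.11.15 with statsmodels 0.14.6 (lowess, span 0.5) and matplotlib 3.10.9 was used for the rest. Alternatives were pseudocounts, quantile normalisation, median centring, filters, eBayes options, leaving out each 1-day array and, chosen after seeing the data, removal of the intensity trend.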

Additional observations from a re-analysis of the deposited data

How the results depend on the processing

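The sign of the 7-day difference from the 1-day mean rested on 1-day array a for 4 of the 5 probe sets. Leaving out each 1-day array in turn, it ranged from -0.51 to 1.41 for the brighter and -0.54 to 0.85 for the dimmer Gch1 probe set, from -0.12 to 1.59 for Pts and from -0.16 to 2.25 for Qdpr, negative without array a each time. For Gchfr it ranged from -1.31 to -0.27. The 1-day difference of Gchfr, array a minus array b, turned to -0.35 with median centring, a setting under which the median over all kept probe sets was -1.32 there and -0.18 for 7 days minus array b. Limma called 0 members under each of its 8 other settings, the lowest unadjusted p among them ranging from 0.266 to 0.499. With the filter at the 75th percentile only 4 of the 5 members were tested. No paired analysis was possible because the groups share only the letter a. With 1 array at 7 days, signal over background could not be set against a replicate.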

Other observations

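Cofactor users below the filter on low values also differed over the arrays. Nos2, the inducible nitric oxide synthase gene, read 257 and 122 on 1-day arrays a and b and 882 at 7 days. Agmo, which encodes an ether lipid oxygenase that needs the cofactor, read 1694, 301 and 44. Their mean log2 values fell under the limit used, which matches an intensity of 759, so neither was tested in limma's main setting.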
